A study of Homo sapiens with 6 samples.

Results

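The LOX family and the collagen hydroxylases are represented here by 10 genes: the lysyl oxidase genes LOX, LOXL1, LOXL2, LOXL3 and LOXL4, the prolyl 4-hydroxylase subunit genes P4HA1 and P4HA2, and the lysyl hydroxylase genes PLOD1, PLOD2 and PLOD3. All probe sets annotated to one of these genes alone were taken, which gave 20 of the 54613 probe sets tested and 10 of the 19775 genes named. The genes were selected on earlier results of the same arrays, so that their signals in the comparison below are given as a description and without p-values. RNA came from IKPRAB-36 (labelled IKPRAB36), an Ishikawa endometrial cancer line stably transfected with the progesterone receptor isoforms PRA and PRB and kept under hygromycin and neomycin. As a model it is limited to a single transfected line whose receptors were introduced as transgenes, cultured in charcoal-stripped serum, which is low in steroids. Cells cultured for 48 h with 1 nM medroxyprogesterone acetate (MPA), a synthetic progestin, were hybridized to 3 Affymetrix U133 Plus 2.0 arrays (MPA 1 to 3), and cells cultured for the same time without MPA to another 3 (control 1 to 3). The labels name no vehicle for the control cultures. They do not say whether each array had a culture of its own, so a p-value here measures only how arrays vary, and that variation may be technical.

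Fibrillar collagen is modified inside the cell before it is secreted and joined into fibrils outside it. Prolyl 4-hydroxylases, tetramers of a catalytic alpha subunit (P4HA1, P4HA2 or P4HA3) and the protein disulfide isomerase P4HB, hydroxylate proline residues and thereby stabilize the collagen triple helix. Lysyl hydroxylases (PLOD1 to PLOD3) hydroxylate lysine residues, which then carry sugars and form stronger crosslinks. Lysyl oxidases are secreted copper enzymes that oxidize lysine and hydroxylysine in collagen and elastin, the first step of crosslinking. The hydroxylases need oxygen, iron, 2-oxoglutarate and ascorbate. LOX, P4HA1, P4HA2 and PLOD2 are textbook targets of the hypoxia-inducible factors, and the collagen of the endometrium is remodelled in every menstrual cycle under the influence of progesterone.

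The arrays were alike in overall signal, with medians of 5.16 to 5.28 on the log2 scale and correlations of 0.9875 to 0.9965 within a group. Array MPA 3 was set apart by its added poly-A control transcripts, whose log2 signals averaged 6.19 there, against 7.50 to 8.23 on the 5 remaining arrays. Values without MPA 3 are given below. The epithelial keratin gene KRT18 averaged 14.05 ± 0.09 with MPA and 14.02 ± 0.05 in control cells (SD, n = 3 arrays each), and 6 of 7 epithelial markers lay above the median of every array, with list means of 9.46 to 9.77 on MPA arrays and 9.62 to 9.80 on control arrays. Of the stromal fibroblast markers 4 of 6 (LUM, PDGFRA, PDGFRB and FAP) lay under the median of every array, with list means of 4.31 to 4.45 on MPA arrays and 4.26 to 4.42 on control arrays. Of the endothelial and leukocyte markers 5 of 7 lay under it, with list means of 4.29 to 4.59 on MPA arrays and 4.42 to 4.53 on control arrays. No marker of these 3 lists was called by limma. At an unadjusted p under 0.05, 2 epithelial markers were lower and no stromal, endothelial or leukocyte marker passed in either direction. The 2 were EPCAM (log2 fold change -0.54, adjusted p = 0.0586, limma) and CDH1 (-0.76, adjusted p = 0.128). SAM called the same number, 2 epithelial markers lower and no other.

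It was observed that MPA was accompanied by higher signals of LOX and of both prolyl 4-hydroxylase alpha subunits and by a lower signal of LOXL4. A probe set was called at an adjusted p under 0.05 (limma, Benjamini-Hochberg over all probe sets) and a change past the fold minimum of the study's methods, and a gene was read from its brightest probe set. Of the 10 genes, 3 were called higher (LOX, P4HA1 and P4HA2), 1 was called lower (LOXL4) and 6 were not called. Over all genes named, 1.74% were called higher and 1.16% lower. Of the 20 probe sets, 6 were called higher and 1 lower, where 1.21% and 0.813% of all probe sets were. The groups of arrays did not overlap for 10 of the 20 probe sets and for 7 of the 10 genes, against 15.4% of all probe sets and 16.9% of all genes. The median log2 fold change was 0.46 over the 10 genes and 0.02 over all genes. Since the genes were picked with this contrast known, nothing is read from these counts. In cultures lysed whole, a change in the share of cells that express a gene and a change in RNA per cell cannot be told apart.

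**Figure D1:**
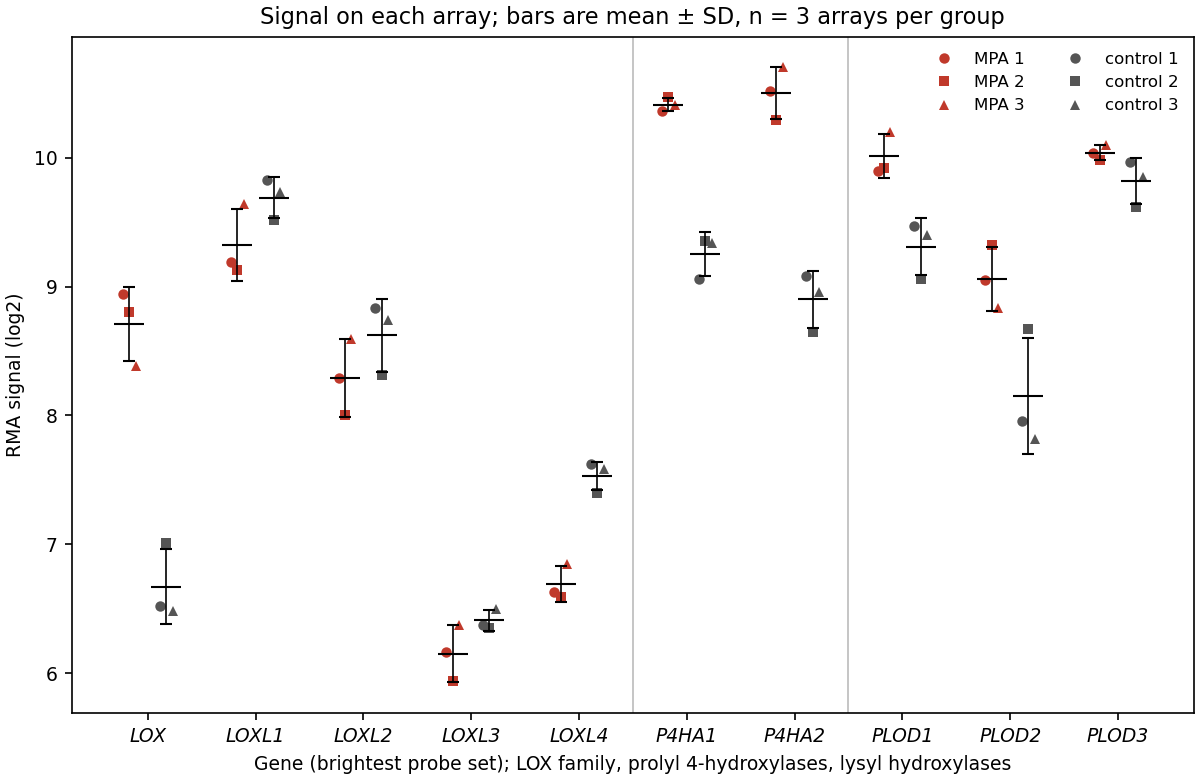
RMA signal (log2) of the brightest probe set of each of the 10 genes on the 3 MPA arrays (red, left) and the 3 control arrays (grey, right), with symbols for the array numbers and black bars for the mean ± SD (n = 3 arrays per group). LOX, P4HA1 and P4HA2 lay higher on every MPA array than on any control array and LOXL4 lower, while the groups of LOXL1, LOXL2 and LOXL3 overlapped. Heights are not comparable between genes.

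LOX, the founding lysyl oxidase, moved furthest among the 10 genes. Its brightest probe set, 215446_s_at, had log2 signals of 8.94, 8.80 and 8.38 on MPA arrays, against 6.52, 7.01 and 6.48 on control arrays. The lowest MPA array thus lay 1.38 above the highest control array. The means were 8.71 ± 0.29 with MPA and 6.67 ± 0.29 without it (SD, n = 3 arrays each), a log2 fold change of 2.04 with a standard error of 0.19, or 4.11-fold, and in size above that of 99.9% of all probe sets. The other probe sets of LOX moved the same way. For 204298_s_at the signals were 7.83, 7.79 and 7.91 on MPA arrays and 5.91, 6.27 and 5.97 on control arrays, a difference of 1.79 (standard error 0.12, 3.46-fold). For 213640_s_at they were 5.44, 5.61 and 5.90 on MPA arrays and 4.20, 4.44 and 4.12 on control arrays, a difference of 1.40 (standard error 0.15, 2.63-fold). The control signals of 213640_s_at lay under the array medians, where a low signal and background cannot be told apart, so that its fold is one of RMA signals only. Array MPA 3 was the lowest of the MPA arrays for the brightest probe set and the highest for both others. Without MPA 3 the difference of the brightest probe set was 2.20, and with any single array left out it ran from 1.92 to 2.21.

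The other genes of the LOX family did not share this pattern. LOXL4, a secreted lysyl oxidase with scavenger receptor cysteine-rich domains, had signals of 6.63, 6.59 and 6.85 on MPA arrays and 7.62, 7.40 and 7.58 on control arrays (227145_at). Every MPA array lay below every control array, by at least 0.55. The means were 6.69 ± 0.14 with MPA and 7.53 ± 0.11 without it (SD, n = 3 arrays each), and the log2 fold change was -0.84 with a standard error of 0.12, a control signal 1.80 times that with MPA. This call was kept in 3 of the 6 fits with 1 array left out and lost without MPA 1, control 1 or control 3, with differences between -0.93 and -0.79 in all 6. The second LOXL4 probe set, 1570219_at, lay under the median of every array and differed by 0.06.

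LOXL1, which acts on elastin, had signals of 9.19, 9.13 and 9.64 on MPA arrays and 9.83, 9.52 and 9.73 on control arrays. Only MPA 3 reached into the control range, and the difference was -0.37 with a standard error of 0.16, or -0.53 without MPA 3. LOXL2, which crosslinks type IV collagen, had signals of 8.29, 8.0 and 8.59 on MPA arrays and 8.83, 8.31 and 8.74 on control arrays for its brightest probe set, a difference of -0.33 with a standard error of 0.19. Its other probe sets differed by -0.10 to 0.11, and 2 of these 3 lay under the median of every array. LOXL3, another family member with scavenger receptor domains, had signals of 6.16, 5.94 and 6.37 on MPA arrays and 6.37, 6.35 and 6.50 on control arrays, a difference of -0.25 with a standard error of 0.13. Without MPA 3 the differences were -0.48 for LOXL2 and -0.36 for LOXL3, and without MPA 2 they were -0.18 and -0.15. None of these 3 genes was called and their groups overlapped. The antisense gene LOXL1-AS1, whose probe set 232752_at is a separate one, had signals of 7.70, 7.74 and 7.59 on MPA arrays and 8.14, 7.83 and 8.31 on control arrays (log2 fold change -0.41, adjusted p = 0.289 from limma), and LOXL2-AS1 differed by -0.05.

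Both prolyl 4-hydroxylase alpha subunits were called higher. P4HA2 had signals of 10.52, 10.29 and 10.70 on MPA arrays and 9.08, 8.65 and 8.96 on control arrays (202733_at). The groups were 1.21 apart at their nearest arrays. The means were 10.50 ± 0.20 with MPA and 8.90 ± 0.22 without it (SD, n = 3 arrays each), a log2 fold change of 1.60 with a standard error of 0.15, or 3.04-fold. A second probe set, 1568611_at, had 7.64, 7.48 and 7.34 on MPA arrays and 6.19, 6.12 and 6.07 on control arrays, a difference of 1.36 (standard error 0.11, 2.56-fold). The third, 1555027_at, lay under the median of every array and differed by -0.05. P4HA1, the alpha subunit found in most cell types, had signals of 10.36, 10.47 and 10.41 on MPA arrays and 9.06, 9.35 and 9.34 on control arrays (207543_s_at). All MPA arrays lay at least 1.02 above the control arrays. The means were 10.41 ± 0.05 with MPA and 9.25 ± 0.17 without it (SD, n = 3 arrays each), and the log2 fold change was 1.17 with a standard error of 0.12, or 2.24-fold, while 243335_at, a probe set under the median of every array, differed by 0.03. Without MPA 3 the differences of the brightest probe sets were 1.51 for P4HA2 and 1.17 for P4HA1.

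The alpha subunit P4HA3 and the shared partner P4HB were not called. P4HA3 had signals of 5.76, 5.76 and 6.07 on MPA arrays and 5.70, 5.47 and 5.82 on control arrays, with overlapping groups and a log2 fold change of 0.19 (adjusted p = 0.761, limma). P4HB had signals of 12.14, 12.06 and 12.26 on MPA arrays and 11.94, 11.76 and 11.90 on control arrays, which did not overlap, with a log2 fold change of 0.28 (adjusted p = 0.383, limma).

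No lysyl hydroxylase gene was called by limma in the fit described above, although all MPA arrays lay above all control arrays for the brightest probe set of each, and SAM called PLOD1 and PLOD2 higher. PLOD2, the lysyl hydroxylase of the collagen telopeptides, had signals of 9.05, 9.32 and 8.83 on MPA arrays and 7.96, 8.67 and 7.82 on control arrays (202620_s_at). Control 2 stood closer to the MPA arrays than to the other control arrays, and the gap between the groups was 0.16. The means were 9.06 ± 0.25 with MPA and 8.15 ± 0.45 without it (SD, n = 3 arrays each), a log2 fold change of 0.91 with a standard error of 0.23. Without control 2 the difference was 1.17 and PLOD2 was called. Its second probe set, 202619_s_at, had 8.78, 8.74 and 8.07 on MPA arrays and 7.42, 8.25 and 7.34 on control arrays, so that MPA 3 and control 2 overlapped, with a difference of 0.86 and a standard error of 0.27.

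PLOD1, which hydroxylates lysines of the helical region, had signals of 9.90, 9.92 and 10.20 on MPA arrays and 9.47, 9.06 and 9.40 on control arrays. The gap between the groups was 0.43, and the log2 fold change was 0.70 with a standard error of 0.14, or 1.62-fold. PLOD1 was also called with an intensity trend in the variance prior, with dim probe sets left out and with the probe sets of each gene averaged before the fit. PLOD3, which also transfers sugars onto hydroxylysine, had signals of 10.04, 9.98 and 10.10 on MPA arrays and 9.97, 9.62 and 9.85 on control arrays. The groups were 0.01 apart, and the log2 fold change was 0.22 with a standard error of 0.12. Without MPA 3 the differences were 1.03 for PLOD2, 0.60 for PLOD1 and 0.19 for PLOD3, and without control 2 that of PLOD3 was 0.13.

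**Figure D2:**
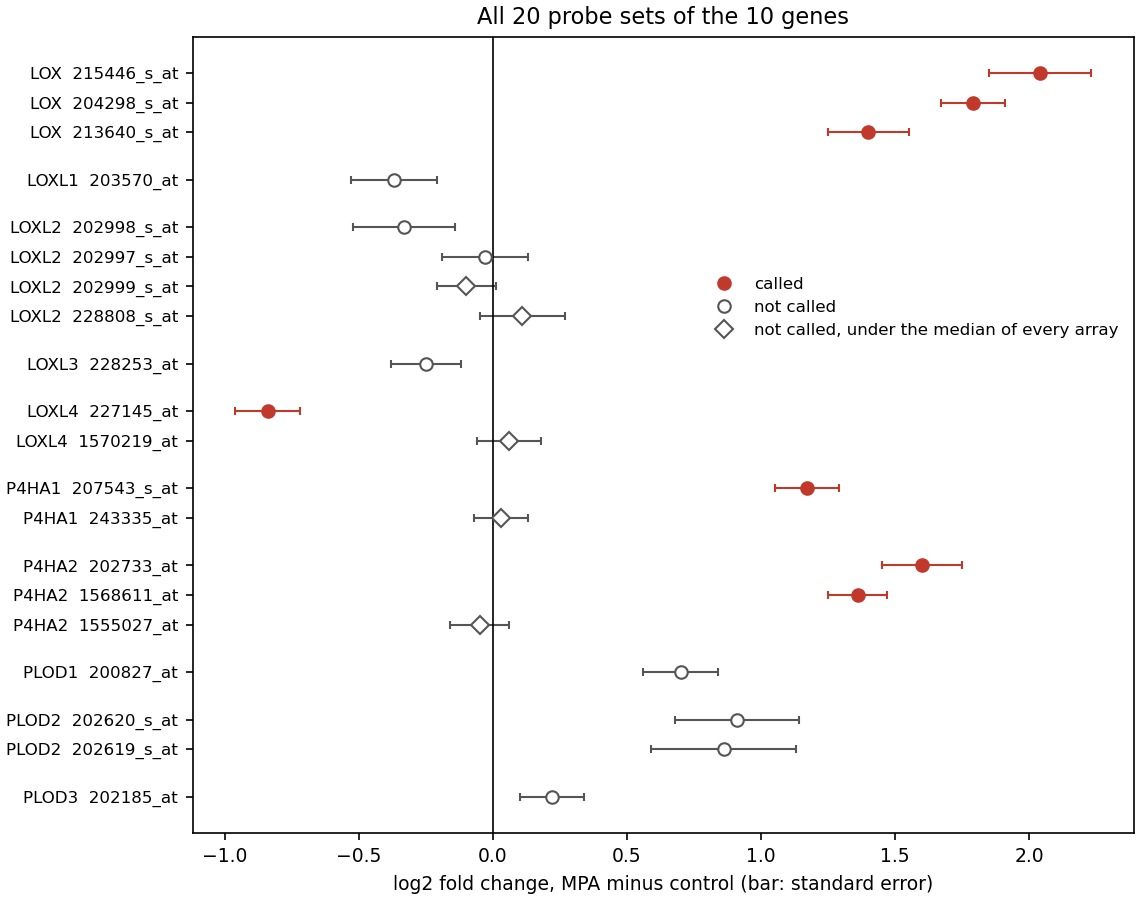
log2 fold change, MPA minus control, of all 20 probe sets of the 10 genes, with bars for the standard error from limma (n = 3 arrays per group), filled red points for called probe sets and diamonds for probe sets under the median of every array. All 3 probe sets of LOX and 2 of 3 of P4HA2 were called higher, and the 5 diamonds all lay near 0, between -0.10 and 0.11.

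Of the 20 probe sets, 14 lay above the median of all 6 arrays and 5 under it on all 6, and none of these 5 was called. Single arrays stood high or low over several of the genes. MPA 3 was the highest MPA array for 7 of the 10 genes and MPA 2 the lowest for 6, while control 1 was the highest control array for 6 and control 2 the lowest for 7. The mean deviation of the 10 genes from their group means was 0.09 on MPA 3 and -0.08 on MPA 2, where that of all probe sets was 0.04 and -0.02. The part of these array differences in the results was not tested beyond leaving out each array.

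The sequences before the start sites are shown for the 4 called genes, 3 of them called higher and 1 lower. They were not chosen for a shared pattern over the single arrays. RefSeq promoter windows (GRCh38.p14, 250 bases before to 50 after an annotated start) matched 9 of the 10 genes, with the most upstream window taken for LOX (3 windows) and LOXL3 (2 windows). The windows were searched on both strands for ACGTG and GCGTG, core letters of the hypoxia response element, and for AGAACA, the hexamer that forms each arm of the progesterone and glucocorticoid response element. The 250 bases before the start are printed 5′ to 3′ on the strand of the gene, all minus here, with matches on either strand in capitals. They lie at chr5:122078260-122078509 for LOX, chr10:73096867-73097116 for P4HA1, chr5:132227092-132227341 for P4HA2 and chr10:98268195-98268444 for LOXL4.
LOX: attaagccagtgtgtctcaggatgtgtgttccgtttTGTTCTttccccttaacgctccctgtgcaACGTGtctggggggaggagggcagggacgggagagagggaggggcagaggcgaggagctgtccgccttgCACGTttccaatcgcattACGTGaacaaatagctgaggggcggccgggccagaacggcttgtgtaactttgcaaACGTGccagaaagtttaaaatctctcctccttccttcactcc
P4HA1: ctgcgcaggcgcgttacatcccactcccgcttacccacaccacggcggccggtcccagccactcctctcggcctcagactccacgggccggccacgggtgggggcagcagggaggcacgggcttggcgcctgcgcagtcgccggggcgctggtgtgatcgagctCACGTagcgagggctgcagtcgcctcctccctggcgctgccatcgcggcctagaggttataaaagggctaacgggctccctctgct
P4HA2: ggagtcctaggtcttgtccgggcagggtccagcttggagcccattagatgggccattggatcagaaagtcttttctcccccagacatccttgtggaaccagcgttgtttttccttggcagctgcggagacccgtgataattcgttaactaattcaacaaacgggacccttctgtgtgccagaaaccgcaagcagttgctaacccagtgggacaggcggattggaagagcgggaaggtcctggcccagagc
LOXL4: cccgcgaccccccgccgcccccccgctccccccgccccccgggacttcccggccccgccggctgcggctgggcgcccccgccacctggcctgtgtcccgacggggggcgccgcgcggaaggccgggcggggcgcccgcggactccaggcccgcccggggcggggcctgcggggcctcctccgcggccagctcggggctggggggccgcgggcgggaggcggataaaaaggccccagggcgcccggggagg

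The LOX window held ACGTG 4 times, at 185, 98 and 42 bases before the start on the printed strand and at 116 bases before it on the opposite strand, where it reads CACGT. It also held AGAACA once, on the opposite strand at 214 bases before the start. P4HA1 held a single ACGTG, on the opposite strand at 86 bases before the start, and P4HA2 and LOXL4 held none of the 3 motifs. Of the genes not called, PLOD2 held ACGTG at 200 and 146 bases before the start and GCGTG at 213, PLOD1 held GCGTG at 68 and 25 bases before the start, and LOXL1, LOXL3 and PLOD3 held none. Among all 35116 windows, 21.4% held ACGTG, 36.5% GCGTG, 48.4% either of them and 14.8% AGAACA, and 4 or more ACGTG, a count chosen after the LOX window was seen, were found in 0.843%. Matches to 3 of 9, 2 of 9, 4 of 9 and 1 of 9 windows of the genes described here stand beside these shares. GC content was 85.3% in the LOXL4 window, with a median of 69.0% over the 9 windows and 58.7% over all. A match is one of letters only, and binding was not measured.

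Among 14 measured partners of collagen hydroxylation, 1 was called higher by limma and none lower, and the median log2 fold change was 0.15. SAM called 2 higher and none lower, and at an unadjusted p under 0.05, 3 were higher and none lower. Over all 54613 probe sets SAM called 1313 higher and 868 lower. No share of all genes was computed for SAM or the unadjusted p. Nothing is therefore read from those counts, here or in the other lists. The gene called by limma was P3H2, a prolyl 3-hydroxylase that acts on basement membrane collagen. Its signals were 12.46, 12.41 and 12.65 on MPA arrays and 10.42, 10.27 and 10.42 on control arrays, without overlap, and the log2 fold change was 2.14 with a standard error of 0.11 (4.41-fold, adjusted p = 5.95e-05, limma). MIA3, which helps load procollagen into transport carriers, had the next largest change, 0.51 (adjusted p = 0.153). The related P3H1 and its partner CRTAP differed by 0.12 and -0.15.

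The collagen chains are the substrates of these enzymes. Of 21 collagen chain genes, 2 were called higher and 1 lower by limma, with a median of 0.04, while SAM called 3 higher and 4 lower, the same numbers as passed an unadjusted p under 0.05. The chains COL4A3 and COL4A4 of basement membrane collagen, whose genes lie head to head, were the called pair. COL4A3 had signals of 8.64, 8.61 and 8.26 on MPA arrays and 4.30, 4.39 and 4.32 on control arrays (adjusted p = 3.13e-06, limma), and since the control signals lay under the array medians, its 18.0-fold change is one of RMA signals only. COL4A4 had 9.84, 9.50 and 9.52 on MPA arrays and 6.11, 6.39 and 6.18 on control arrays (10.5-fold, adjusted p = 1.17e-05). The type IV chains of most basement membranes, COL4A1 and COL4A2, differed by 0.07 and -0.05. The chain of a fibril-associated collagen, COL12A1, had 8.10, 7.91 and 8.27 on MPA arrays and 8.81, 8.85 and 9.31 on control arrays (log2 fold change -0.89, adjusted p = 0.0289), a call that was lost without MPA 1, MPA 2, control 1 or control 3. The COL12A1 call was also lost with the probe sets of each gene averaged, at a difference of -0.517 (adjusted p = 0.175, limma). Of the fibrillar chains, COL1A1, COL2A1 and COL3A1, named after their values were seen, lay lower by 0.81, 0.71 and 0.53 without a call by limma (adjusted p = 0.168, 0.150 and 0.0918), and their arrays did not overlap between groups. All 3 were called lower by SAM, COL1A1 also without control 2, COL2A1 without MPA 3 and COL3A1 with an intensity trend in the variance prior. The other fibrillar chains listed did not share this fall. COL1A2, COL5A1, COL5A2, COL5A3, COL11A1 and COL11A2 differed by -0.08 to 0.11, with overlapping groups and no call. Of these, COL1A2, COL5A2 and COL11A1 lay under the median of every array.

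None of 13 genes of procollagen processing and LOX activation was called by limma, with a median of -0.01. At an unadjusted p under 0.05, 1 was higher (FBLN5) and 1 lower (PCOLCE2, -0.36, adjusted p = 0.285), and SAM called 1 higher (FBLN5). BMP1, the protease that removes the procollagen C-propeptide and the LOX propeptide, differed by 0.03 (adjusted p = 0.988). FBLN5, an elastic fibre protein that binds LOXL1, had signals of 8.85, 8.75 and 9.29 on MPA arrays and 8.21, 7.95 and 8.42 on control arrays (log2 fold change 0.77, adjusted p = 0.0823), and PCOLCE, an enhancer of C-propeptide removal, differed by -0.38 (adjusted p = 0.641). None of 10 genes listed for the supply of cofactors (copper, iron, ascorbate or 2-oxoglutarate) was called by limma. At an unadjusted p under 0.05, 3 were higher, and SAM called 1 (SLC39A14). Which metal a listed transporter carried in these cells, and the supply itself, were not measured. The median of these 10 was 0.23, with the largest changes in the metal transporters SLC39A13 (0.49, adjusted p = 0.207) and SLC39A14 (0.44, adjusted p = 0.0763).

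Hypoxia-inducible factors (HIF) are held low by hydroxylases of the same enzyme class and raise a common set of target genes. Of 10 oxygen-sensing hydroxylases and HIF subunits none was called by limma, with a median of -0.02, while 2 were higher and 1 lower at an unadjusted p under 0.05 and SAM called 1 each way (HIF1A higher, ARNT2 lower). HIF1A, the oxygen-regulated subunit, had signals of 12.06, 12.20 and 11.98 on MPA arrays and 11.30, 11.87 and 11.46 on control arrays (log2 fold change 0.53, adjusted p = 0.198), and without control 2 it was called. The partner subunit ARNT2 differed by -0.52 (adjusted p = 0.113). Of 24 measured hypoxia-response genes, 9 were called higher and none lower, with a median of 0.35, where 1.74% of all genes were called higher. At an unadjusted p under 0.05, 15 were higher and none lower, and SAM called 10 higher and none lower. The share of 1.74% is that of limma calls and is no background for these counts. NDRG1, a stress-response gene, had signals of 10.26, 10.06 and 10.53 on MPA arrays and 7.94, 7.33 and 7.71 on control arrays (6.15-fold, adjusted p = 0.000243). BNIP3 and BNIP3L, mitophagy receptors, changed by 1.69 and 1.44 on the log2 scale (adjusted p = 0.00108 and 0.000661), and PDK1, which inhibits pyruvate dehydrogenase, by 1.28 (adjusted p = 0.00111). The other called genes were AK4, DDIT4, ANKRD37, PFKFB4 and LDHA, with log2 fold changes of 0.53 to 1.17. Among the 6 fits with 1 array left out, PFKFB4 kept its call only in that without MPA 2 and LDHA only in that without MPA 3, and ANKRD37 lost its call without MPA 1 or control 3. Widely used hypoxia genes were not called, among them VEGFA (-0.21, adjusted p = 0.707), SLC2A1 (-0.20, adjusted p = 0.661) and ADM (0.19, adjusted p = 0.587). The count of called genes was 6 to 8 with 1 array left out, the lowest without MPA 1 or control 3. Oxygen and HIF protein were not measured, and the lists were drawn up with earlier results of these arrays known.

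**Figure D3:**
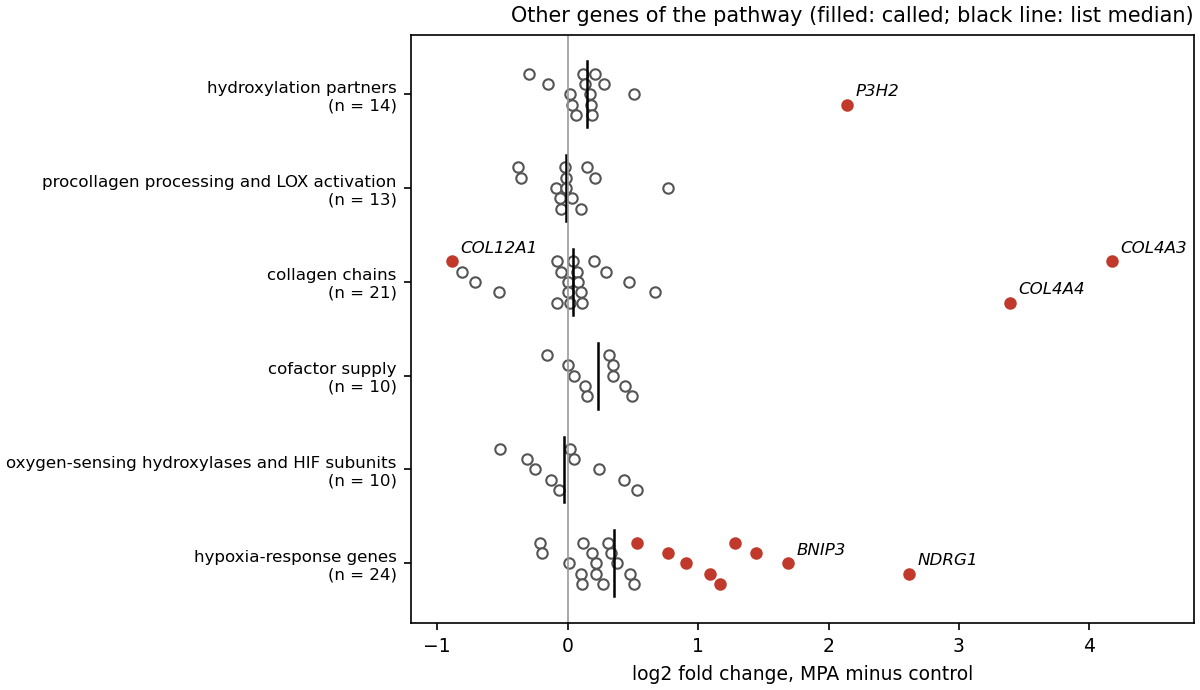
log2 fold change, MPA minus control, of each measured gene of 6 pathway lists that hold none of the 10 genes, read from the brightest probe set (n = 3 arrays per group), with filled red points for called genes and a black line for the list median. COL4A3, COL4A4, NDRG1 and P3H2 lay furthest to the right, and the list medians lay between -0.02 and 0.35.

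The genes whose signals followed those of LOX, P4HA2 and LOXL4 most closely were found by the Euclidean distance between log2 signals centred on each gene's mean over the 6 arrays. Nearest to LOX were KLF9, a transcription factor (distance 0.34), OSBPL11, an oxysterol-binding protein (0.34), and GDAP1, a mitochondrial protein (0.37). KLF9 had signals of 8.15, 8.16 and 7.42 on MPA arrays and 5.59, 5.94 and 5.52 on control arrays. MPA 3 was lowest and control 2 highest in their groups, as for the brightest probe set of LOX, from which the distance was taken. In both other LOX probe sets MPA 3 was the highest MPA array. Nearest to P4HA2 were OCA2, a melanosomal transporter (0.14), SLPI, a secreted protease inhibitor (0.15), and ALDOC, a glycolytic aldolase (0.21). OCA2 had signals of 7.59, 7.45 and 7.67 on MPA arrays and 6.12, 5.75 and 6.03 on control arrays. Nearest to LOXL4 were CD1D, a lipid antigen-presenting molecule (0.10), SLC7A5, an amino acid transporter (0.12), and GJC1, a connexin (0.12). SLC7A5 had signals of 10.81, 10.73 and 11.06 on MPA arrays and 11.89, 11.69 and 11.79 on control arrays. These distances describe 6 arrays and carry no test.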

How the data were processed

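IKPRAB-36 cells with MPA (3 arrays) were compared with cells without it (3 arrays). The authors deposited log2 signals made with RMA, which covers background correction, normalization across arrays and probe summarization. These steps were left as they were, and the software version is not stated in the sources used here. Of 54675 probe sets, 62 Affymetrix controls were left out. Of the rest, 41091 had 1 gene symbol in the platform annotation (41037 matched by identifier to the RefSeq gene table of GRCh38.p14), 1801 several and 11721 none, and only the first kind was named. Each gene was read from its brightest probe set over the 6 arrays.

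The comparison was a two-sided limma fit (version 3.58.1 in R 4.3.3, lmFit followed by eBayes) without covariates, and p-values of 54613 probe sets were adjusted by Benjamini-Hochberg. Calls were made at an adjusted p under 0.05 together with 1.25-fold or more, the fold minimum of the methods. The 10 genes, the pathway lists and the tests were chosen with earlier results of these data known. The text names the 10 genes, P4HA3, P4HB, up to 4 called genes per direction of each list (the 2 with the largest change where fewer than 2 were called) and the 3 nearest genes by distance. Other names were added after their values were seen. Alternatives were SAM (the test of the methods, written from its description, delta 0.53), an intensity trend, a replicate block, a second quantile normalization, housekeeping scaling, a filter on dim probe sets, other fold minimums, the mean of a gene's probe sets and each array left out. The steps were tested on simulated data, where SAM called many more unchanged probe sets than limma and limma missed most of the smallest planted changes. Noise was drawn independently for each probe set there, and fewer changes were planted than limma called on these arrays. The simulation therefore gives no error rate of either test for these arrays. On these arrays too SAM called more probe sets than limma, so a SAM call is the less strict of the 2 here. A gene not called by limma may still have changed by a small amount. Precision is limited by the number of arrays. No exact permutation test was used, since 3 against 3 arrays cannot reach a p under 0.1. Promoter windows came from RefSeq. Protein sequences were not used here.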

Additional observations from a re-analysis of the deposited data

How the results depend on the processing

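Over 10 settings, 96 of 100 log2 fold changes of the 10 genes moved by less than 1 SD of the replicate arrays and none of a called gene changed sign. Most of this count was fixed in advance. Leaving out 1 of 3 arrays cannot move a group mean by 1 SD, and the replicate block returns the same differences. Averaging changes nothing for a gene with 1 probe set. The count is therefore no measure of stability. The 4 values that moved further came from averaging a gene's probe sets: LOX 1.74, P4HA2 0.97, P4HA1 0.60 and LOXL4 -0.39, with no gene of the 10 then called lower and PLOD1 called higher. For P4HA2, P4HA1 and LOXL4 the average took in a probe set under the median of every array. For LOX it took in the called probe sets with differences of 1.79 and 1.40. SAM called 1313 probe sets higher and 868 lower, against 663 and 444 with limma, 5 of the 10 genes higher (adding PLOD1 and PLOD2) and 5 pathway genes lower. A minimum of 2-fold gave 357 and 153 probe sets, and 0 of the 10 genes, 0 of their probe sets and 0 pathway genes lower. An intensity trend gave 2 pathway genes lower and the mean of probe sets 0. With 1 array left out, 353 to 725 probe sets were higher and 156 to 465 lower (fewer by over 1.5 times in both directions without MPA 1, control 1 or control 3, and in the lower direction without MPA 2), 0 to 1 of the 10 genes and of their probe sets were lower (LOXL4), and 0 to 2 pathway genes were lower. Pathway genes called higher numbered 9 to 18 over all settings, against 12. LDHA lost its call under housekeeping scaling and in 5 of the 6 fits with 1 array left out. This scaling moved the median log2 change of all probe sets to -0.0302, against 0.0138.

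Arrays of the groups share replicate numbers, but deviations of same-numbered arrays correlated at -0.017, 0.523 and 0.326, so the numbers were not taken as pairs. With the replicate block 1208 probe sets were higher and 825 lower, 5 of the 10 genes were higher (adding PLOD1 and PLOD2) and 5 pathway genes were lower (COL12A1, COL1A1, COL2A1, COL3A1 and ARNT2). Not every array correlated best with its own number (MPA 1 correlated best with control 2, at 0.076). The cause of these differences was not tested. Probe sets under the array medians cannot be told from background.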
